A study of Homo sapiens with 9 samples.

Results

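The long non-coding RNA (lncRNA) genes that carry small nucleolar RNAs (snoRNAs) in their introns were followed in SNU16 cells, a human gastric carcinoma line. Members were the genes named SNHG (small nucleolar RNA host gene) with a number, together with GAS5, ZFAS1 and DANCR. This gave 31 of the 28717 gene identifiers in the deposited table, with 895 of its 90652 transcripts. Among these genes, the GENCODE V29 annotation classes SNHG32 as protein-coding. All cells were labelled wild type and were harvested at 24 h from 3 groups of 3 libraries: untreated control, 7.69 µM 5-fluorouracil (5-FU), an antimetabolite that enters RNA and blocks thymidylate synthase, and 80 µM hydrogen peroxide (H2O2), a reactive oxygen species. Per the design text, the study asked which genes take part in chemoresistance mediated by reactive oxygen species. No source states that the replicates were separate cultures, so a p-value measures spread among the libraries only, which may be of technical origin.

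Box C/D snoRNAs guide ribose methylation and box H/ACA snoRNAs guide pseudouridylation, mainly of ribosomal RNA, and the related scaRNAs act on spliceosomal RNAs. In vertebrates most of them are cut out of introns during splicing, so transcription of a host gene yields both a snoRNA and a spliced host RNA. Several spliced host RNAs begin with a tract of pyrimidines, as do the mRNAs of ribosomal proteins (terminal oligopyrimidine or TOP mRNAs), and some, GAS5 among them, are translated and then degraded by nonsense-mediated decay. The values here are those of the host transcripts, and the snoRNAs themselves were not analysed here.

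By the RefSeq table, 29 of the 31 genes hold at least 1 snoRNA or scaRNA, 147 in all, of which SNHG14 alone holds 83. The other 64 are 38 of box C/D type, 22 of box H/ACA type and 4 scaRNAs. GAS5 holds 11, the highest number outside SNHG14, followed by SNHG1 with 8. Some snoRNAs of the genes on which the comparisons below turn are shown to let the box types be told apart. SNHG5 hosts the C/D pair SNORD50A and SNORD50B, and SNHG29 hosts SNORD49A, SNORD49B and SNORD65. SNHG7 hosts the H/ACA pair SNORA17A and SNORA17B, and SNHG15 hosts SNORA9. Sequences are GENCODE V29 transcripts on GRCh38. Capitals mark the C box (TGATGA) and the D box (CTGA) of the C/D type, and the ACA triplet near the end of the H/ACA type.
SNORD50B (chr6:85677589-85677658, minus strand): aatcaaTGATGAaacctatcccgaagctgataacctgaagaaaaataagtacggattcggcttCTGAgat
SNORD49A (chr17:16440036-16440106, plus strand): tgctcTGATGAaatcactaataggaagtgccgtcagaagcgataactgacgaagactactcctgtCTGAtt
SNORD49B (chr17:16439505-16439576, plus strand): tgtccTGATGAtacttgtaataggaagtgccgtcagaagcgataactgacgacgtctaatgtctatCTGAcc
SNORD65 (chr17:16441226-16441298, plus strand): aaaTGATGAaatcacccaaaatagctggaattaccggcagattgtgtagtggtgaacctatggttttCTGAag
SNORA17A (chr9:136726747-136726879, minus strand): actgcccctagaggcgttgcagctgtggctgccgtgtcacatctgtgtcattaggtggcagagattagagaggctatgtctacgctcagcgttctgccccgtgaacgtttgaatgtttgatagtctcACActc
SNORA9 (chr7:44985378-44985510, minus strand): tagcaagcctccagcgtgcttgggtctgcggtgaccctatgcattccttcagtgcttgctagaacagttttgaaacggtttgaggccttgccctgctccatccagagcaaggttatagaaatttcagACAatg

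The start-site windows of the genes called below and of the most abundant genes are shown because the pyrimidine tract at the start is the feature that sets TOP RNAs apart. Windows run from 30 bases before to 29 bases after the RefSeq start (GRCh38.p14), and capitals mark the unbroken run of C and T that begins with a C at the start base.
SNHG5 (chr6:85678704-85678763, minus strand): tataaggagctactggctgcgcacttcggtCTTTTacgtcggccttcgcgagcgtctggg
SNHG7 (chr9:136728155-136728214, minus strand): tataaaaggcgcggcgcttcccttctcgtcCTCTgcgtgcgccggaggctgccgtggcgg
SNHG29 (chr17:16438957-16439016, plus strand): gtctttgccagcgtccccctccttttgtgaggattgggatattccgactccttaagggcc
SNHG32 (chr6:31834886-31834945, plus strand): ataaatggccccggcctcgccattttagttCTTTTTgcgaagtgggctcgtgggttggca
SNHG16 (chr17:76557734-76557793, plus strand): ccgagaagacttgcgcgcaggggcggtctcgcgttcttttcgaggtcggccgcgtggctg
SNHG3 (chr1:28505913-28505972, plus strand): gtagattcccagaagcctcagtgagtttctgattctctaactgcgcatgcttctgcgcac
ZFAS1 (chr20:49278612-49278671, plus strand): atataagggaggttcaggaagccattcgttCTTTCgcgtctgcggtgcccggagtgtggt
SNHG1 (chr11:62855856-62855915, minus strand): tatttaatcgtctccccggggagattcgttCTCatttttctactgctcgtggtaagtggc
A run of at least 5 such bases was counted as a TOP-like start, read on the gene's strand. It was present in 7 of the 27 members matched in the RefSeq promoter table (25.9%) and in 1429 of all 35116 promoters (4.07%). SNHG5, ZFAS1, SNHG32, SNHG12, SNHG4, SNHG18 and SNHG19 had it. SNHG7 had a run of 4 bases and SNHG1 a run of 3, while the starts of SNHG29, SNHG16 and SNHG3 were a G. A looser criterion, a run of 8 or more C and T within 20 bases of the start, was met by 8 of 27 members (29.6%) and by 22.1% of all promoters. Other motifs were searched on both strands of the whole promoter entry. TATAAA was in 4 of 27 members (14.8%) against 11.5% of all promoters, and in SNHG19 it occurred together with the TOP-like start. CACGTG was in 2 members (7.41%) against 7.26%, and CCGGAAG in 2 members against 10.3%. A match is a description of the letters only. The RefSeq start of GAS5 lies 1050 bases from the nearest start in the deposited table, so its window is not shown. GAS5 is nonetheless counted among the 27, as lacking the TOP-like start. By the same measure the RefSeq start was 37 bases off in SNHG3 and 15 bases off in SNHG5. It was at most 2 bases off in the other windows shown, but 230 in SNHG10 and 114 in SNHG26. SNHG18, counted with the run, had no such transcript. The run was read at the RefSeq start in each case.

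Among marker genes of cell types, those of simple epithelium had the highest listed levels. These values are mostly those of non-coding models of the marker genes, not of their mRNAs. A value near 0 therefore does not show that an mRNA was absent. Of 8 simple-epithelium markers 6 were in the table and all 6 passed the filter, with a summed level of 189.6 to 417 FPKM (fragments per kilobase, scaled to library size) in the libraries. The 3 leukocyte markers in the table summed to at most 0.0176 FPKM, the 3 fibroblast and mesenchyme markers to between 0.336 and 0.724 FPKM, and VWF, the only endothelial marker in the table, was listed at 0. The listed FPKM of a library summed to between 56096 and 60642, with between 9044 and 9335 genes at 0.5 FPKM or more. The number of reads is unknown, so no counting interval is given. A pair of treated libraries stood apart on the principal components of all genes tested. On the first component 5-FU replicate 3 lay at 33.3, against 12.5 and 15.8 for the other 5-FU libraries. On the second, H2O2 replicate 3 lay at -41.9, against -3.40 and -2.39. The calls, the medians and the gene lists below are therefore also given with both left out.

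Host RNAs took a smaller share of the listed FPKM after 5-FU and a larger one after H2O2. The 31 genes together made up 1.54%, 1.501% and 1.53% of the total in the control libraries, 1.32%, 1.28% and 1.23% after 5-FU, and 1.68%, 1.69% and 1.60% after H2O2. The 3 groups did not overlap, with means of 1.52% ± 0.0199, 1.28% ± 0.0457 and 1.65% ± 0.0499 (SD, n = 3). The summed level was 867 ± 18.1 FPKM in control, 739.5 ± 14.5 FPKM after 5-FU and 973 ± 37.6 FPKM after H2O2. In RNA from bulk cultures, fewer cells of a kind and less RNA per cell cannot be told apart. No test was run on this sum. A few abundant genes held much of the change, none of them called except SNHG7. After 5-FU the mean sum differed from control by -128 FPKM, with -75.3 FPKM in SNHG29, -27.1 in SNHG7 and -17.9 in GAS5. After H2O2 it differed by 106 FPKM, with 39.4 FPKM in SNHG16, 28.2 in GAS5 and 12.7 in SNHG15. With SNHG29 left out of the sum, a step chosen after seeing the data, the share was 1.06% to 1.103% in control, 0.966% to 0.997% after 5-FU and 1.20% to 1.27% after H2O2, still without overlap. With SNHG16 left out instead, it was 1.43% to 1.469% in control and 1.468% to 1.553% after H2O2, and those groups overlapped narrowly. With both SNHG29 and SNHG16 left out, it was 0.984% to 1.036% in control and 0.861% to 0.910% after 5-FU. After H2O2 it was then 1.075% to 1.137%, and the groups did not overlap.

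**Figure D1:**
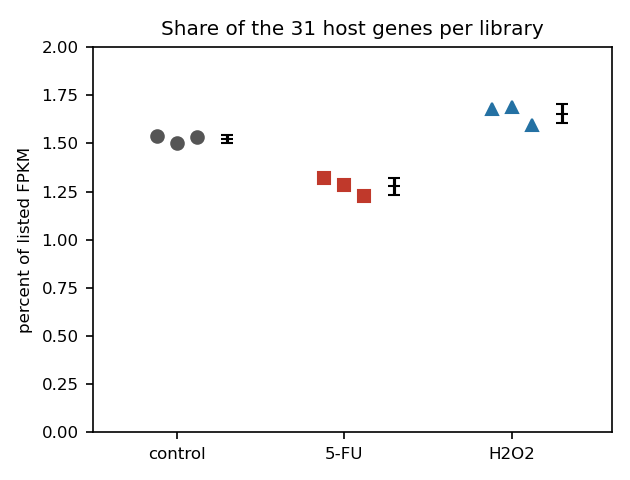
Share of the listed FPKM (percent, y axis) taken by the 31 host genes in each of the 3 libraries per group (points), with the mean and SD beside them. Control libraries lie at 1.501% to 1.54%, 5-FU libraries at 1.23% to 1.32% and H2O2 libraries at 1.60% to 1.69%.

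Levels spanned a wide range between the members. FPKM is a value per length of transcript, so levels of different genes can be set beside each other. SNHG29, a C/D host on chromosome 17, was the most abundant, with a mean of 222 FPKM over the 9 libraries, followed by GAS5 at 123 FPKM and SNHG32 at 91.0 FPKM. Next came SNHG16 at 57.6, SNHG3 at 53.7, SNHG7 at 52.5, ZFAS1 at 43.8 and SNHG1 at 37.9 FPKM. The order of these last 5 genes was not the same in each group. In the control means SNHG16, at 39.5 FPKM, came below ZFAS1 at 42.8 and SNHG1 at 42.0 FPKM, and in the 5-FU means SNHG7, at 33.1 FPKM, came below ZFAS1 at 37.1 FPKM. SNHG6, SNHG17, SNHG5, SNHG12, SNHG15, DANCR, SNHG4 and SNHG8 had means of 13.1 to 23.7 FPKM, and 9 others, SNHG22, SNHG19, SNHG30, SNHG26, SNHG20, SNHG11, SNHG25, SNHG10 and SNHG21, had means of 1.83 to 7.45 FPKM. SNHG9 was at 0.599 FPKM. In all, 26 members reached 0.5 FPKM in at least 3 libraries and were tested. Of the 5 that did not, SNHG18 and SNHG27 were listed at 0 in every library. SNHG14, a host of tandem snoRNA clusters in the Prader-Willi region, stayed at or under 0.101 FPKM, SNHG28 at or under 0.183 FPKM and SNHG31 at or under 0.353 FPKM.

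**Figure D2:**
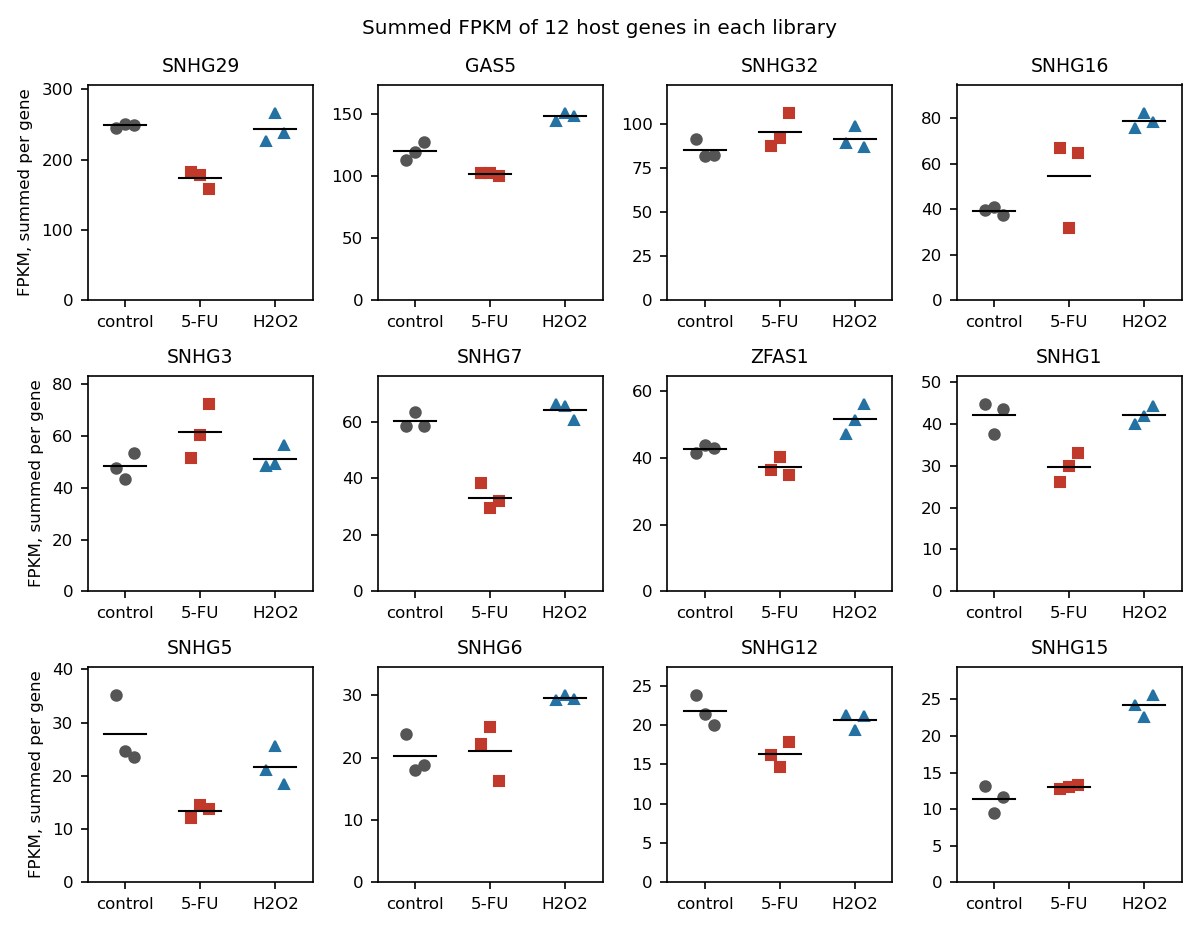
Summed FPKM per gene (y axis, from 0) in each library for 12 host genes, with the group mean as a line. SNHG7 and SNHG5 are lower in every 5-FU library than in any control library, SNHG15 and SNHG16 are higher in every H2O2 library, and SNHG16 splits within the 5-FU group (67.1, 31.8 and 64.7 FPKM).

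The first comparison asked which host genes differ between 5-FU and control. SNHG7 and SNHG5 fell after 5-FU, each by close to 1 on the log2 scale, and no host gene was called higher. Differences are log2 differences of FPKM + 0.5 with their standard error (SE), tested with limma over all 9947 genes with Benjamini-Hochberg adjustment and a threshold of 0.05. Called were 2 of 26 host genes, both lower, against 0.774% of all genes tested (0.251% lower and 0.523% higher). Each gene with no overlap between 3 and 3 libraries has an exact two-sided permutation p of 0.1, the smallest this design allows.

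Among hosts of C/D snoRNAs, SNHG5 (ENSG00000203875, GRCh38 chr6:85650491-85678932, minus strand), whose start-site window above has the TOP-like run, was at 35.3, 24.6 and 23.6 FPKM in control and at 12.04, 14.5 and 13.8 FPKM after 5-FU. All 3 treated libraries lay below the lowest control. Its log2 difference was -1.003 (SE 0.19, limma adjusted p = 0.0452). SNHG29 (chr17:16438767-16480249, plus strand) was at 245, 251.1 and 249.8 FPKM in control and at 183, 179 and 158 FPKM after 5-FU, again without overlap, with a difference of -0.52 (SE 0.12) that missed the threshold (limma adjusted p = 0.0828). SNHG1 (chr11:62851978-62855953, minus strand), host of the SNORD25 to SNORD31 group, was at 44.8, 37.6 and 43.6 FPKM in control and 26.1, 29.9 and 32.9 FPKM after 5-FU. The groups did not overlap and the log2 difference was -0.50 (SE 0.14, limma adjusted p = 0.130). ZFAS1 (chr20:49278178-49299600, plus strand), which hosts the SNORD12 group, was at 41.5, 43.9 and 43.0 FPKM in control and 36.2, 40.4 and 34.8 FPKM after 5-FU. Its groups did not overlap by a narrow margin, the log2 difference being -0.21 (SE 0.13, limma adjusted p = 0.473).

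The C/D hosts SNHG16, SNHG32, SNHG26 and SNHG6 overlapped with control. SNHG16 (chr17:76557727-76670985, plus strand), host of SNORD1A, SNORD1B and SNORD1C, was at 39.6, 41.1 and 37.7 FPKM in control and at 67.1, 31.8 and 64.7 FPKM after 5-FU. Replicates 1 and 3 lay above the controls and replicate 2 below them, so the log2 difference of 0.39 had an SE of 0.24 (limma adjusted p = 0.483). SNHG32 (chr6:31834608-31839766, plus strand), host of SNORD48 and SNORD52, was at 91.6, 82.1 and 82.5 FPKM in control and 87.7, 92.3 and 107 FPKM after 5-FU (log2 difference 0.16, SE 0.13). SNHG26 (chr7:22854126-22872952, plus strand), host of SNORD93, was at 2.90, 2.29 and 1.79 FPKM and at 4.54, 2.58 and 2.79 FPKM after 5-FU, the log2 difference being 0.41 (SE 0.40). SNHG6 (chr8:66920561-66926398, minus strand) was at 23.8, 18.1 and 18.8 FPKM in control and 22.1, 25.0 and 16.3 FPKM after 5-FU. For SNHG6 the groups overlapped throughout and the log2 difference was 0.051 (SE 0.18).

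The hosts of both box types had means below control. GAS5 is placed among them by 1 H/ACA entry of RefSeq beside 10 of box C/D. GAS5 (chr1:173858559-173868882, minus strand), named for its accumulation in growth-arrested cells, was at 113, 119 and 127 FPKM in control and 102, 103 and 100.3 FPKM after 5-FU. Every 5-FU library was lower than every control, the log2 difference being -0.23 (SE 0.11, limma adjusted p = 0.346). SNHG12 (chr1:28578538-28583132, minus strand) was at 23.9, 21.5 and 20.01 FPKM in control and 16.2, 14.7 and 17.9 FPKM after 5-FU. It did not overlap either, the log2 difference being -0.41 (SE 0.14, limma adjusted p = 0.193). SNHG25 had means of 1.99 ± 0.318 and 1.48 ± 0.344 FPKM.

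Among the H/ACA hosts, SNHG7 (ENSG00000233016, chr9:136721366-136728184, minus strand) was at 58.6, 63.5 and 58.6 FPKM in control and at 38.2, 29.3 and 31.9 FPKM after 5-FU. No 5-FU library reached the lowest control, and the log2 difference was -0.86 (SE 0.13, limma adjusted p = 0.0265). SNHG3 (chr1:28505980-28510892, plus strand), host of SNORA73A and SNORA73B, was at 47.7, 43.4 and 53.6 FPKM in control and 51.6, 60.3 and 72.5 FPKM after 5-FU. The lowest 5-FU library lay within the control range, and the log2 difference was 0.34 (SE 0.16, limma adjusted p = 0.336). SNHG15 (chr7:44983019-44986961, minus strand) was at 13.1, 9.53 and 11.6 FPKM in control and 12.8, 13.1 and 13.2 FPKM after 5-FU, the log2 difference being 0.19 (SE 0.15). SNHG9 (chr16:1964895-1965509, plus strand), host of SNORA78, was at 0.467, 0.0951 and 0.658 FPKM in control and at 0.873, 0.544 and 0 FPKM after 5-FU. At this level the groups could not be told apart (log2 difference 0.035, SE 0.40). DANCR, host of SNORA26, varied within groups, from 7.28 to 21.4 FPKM in control and from 6.66 to 17.0 FPKM after 5-FU.

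Of the 26 tested host genes, 16 had a log2 difference below 0, against 46.2% of all genes tested. With 1 library left out this count ran from 13 to 18, the 13 being without control replicate 3. The groups did not overlap for 8 with 5-FU lower (9.56% of all genes) and for 0 with 5-FU higher (12.8% of all genes). Besides the genes above, SNHG19 lay lower without overlap, at 6.18 ± 0.626 FPKM in control and 4.89 ± 0.254 FPKM after 5-FU. At an unadjusted p under 0.05 there were 5 host genes, all lower, against 15.5% of all genes in either direction and 6.46% lower. The median log2 difference over the tested host genes was -0.18, beside 0.032 over all genes tested. Without control replicate 3 it was 7.52e-05, and without 5-FU replicate 3 and H2O2 replicate 3 it was -0.17. Neither call was stable. With 5-FU replicate 3 and H2O2 replicate 3 left out, a setting chosen after seeing the data, the log2 differences were -1.02 for SNHG5 and -0.84 for SNHG7, with limma adjusted p of 0.118 and 0.0967. Leaving out any single control or 5-FU library or H2O2 replicate 1 also took both above the threshold, with limma adjusted p of 0.0747 to 0.122 for SNHG5 and 0.0534 to 0.0982 for SNHG7. The log2 differences then ran from -1.11 to -0.82 and from -0.97 to -0.78.

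**Figure D3:**
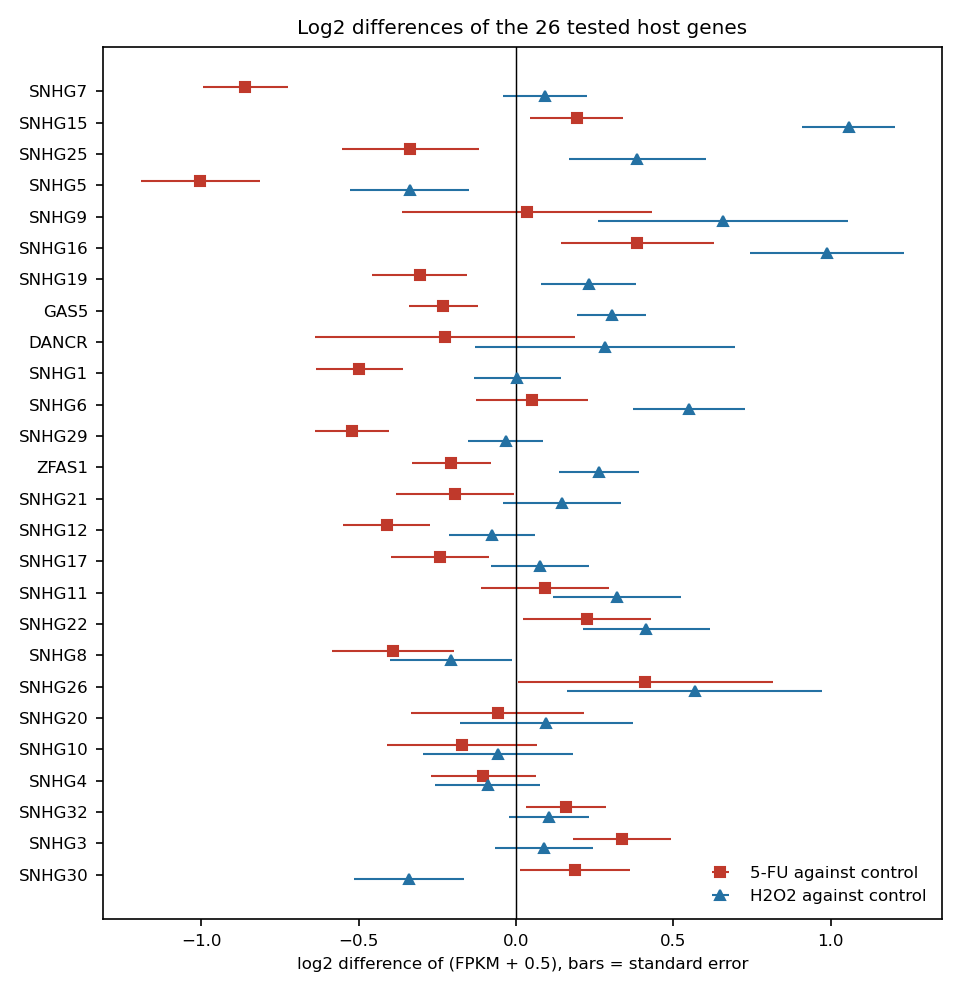
Log2 difference of FPKM + 0.5 (x axis) with its standard error for the 26 tested host genes in 5-FU against control (squares) and H2O2 against control (triangles), ordered by their 5-FU against H2O2 difference. Only SNHG5 (-1.003) and SNHG7 (-0.86) passed the limma threshold, both in 5-FU, and SNHG15 (1.06) and SNHG16 (0.99) had the highest H2O2 values. Both contrasts share the control libraries.

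The second comparison asked which host genes differ between H2O2 and control. Most lay above control, led by SNHG15 and SNHG16, but none passed the test. Limma called 0 of 26 host genes and 0 of all 9947 genes (0.0%). At an unadjusted p under 0.05 there were 4 host genes, all higher, against 9.07% of all genes in either direction and 5.29% higher.

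SNHG15, host of SNORA9, was at 24.2, 22.6 and 25.6 FPKM after H2O2, beside 13.1, 9.53 and 11.6 FPKM in control. The lowest H2O2 library lay well above the highest control, the log2 difference being 1.06 (SE 0.15, limma adjusted p = 0.105). SNHG16 was at 75.8, 82.5 and 78.3 FPKM after H2O2, about the same in all 3 libraries and above every control. Its log2 difference was 0.99 (SE 0.24, limma adjusted p = 0.333). SNHG6 was at 29.3, 30.1 and 29.4 FPKM, also above every control, the log2 difference being 0.55 (SE 0.18, limma adjusted p = 0.460).

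Smaller differences without overlap were seen in an abundant pair. GAS5 was at 144, 151 and 148 FPKM after H2O2, all above the highest control of 127 FPKM (log2 difference 0.31, SE 0.11, limma adjusted p = 0.483). ZFAS1 was at 47.2, 51.4 and 56.2 FPKM, all above the highest control of 43.9 FPKM (log2 difference 0.26, SE 0.13, limma adjusted p = 0.573). SNHG22, a scaRNA host, had means of 6.25 ± 0.501 FPKM in control and 8.48 ± 0.237 FPKM after H2O2, also without overlap. These 3 genes with SNHG15, SNHG16 and SNHG6 made 6 host genes higher without overlap, against 8.86% of all genes, and 0 lower, against 6.51%.

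The 2 genes called in 5-FU did not separate from control here. SNHG7 was at 66.4, 65.6 and 60.8 FPKM after H2O2 (log2 difference 0.093, SE 0.13), and its lowest value lay inside the control range. SNHG5 was at 21.1, 25.6 and 18.5 FPKM (log2 difference -0.34, SE 0.19). SNHG29 was at 226, 267 and 237 FPKM (log2 difference -0.033, SE 0.12), on both sides of the controls. SNHG1 at 40.0, 42.0 and 44.2 FPKM and SNHG12 at 21.3, 19.4 and 21.2 FPKM likewise overlapped with control.

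SNHG3 at 48.4, 49.1 and 56.4 FPKM and SNHG32 at 89.5, 99.0 and 87.3 FPKM overlapped with control as well. The low genes SNHG26, at 5.76, 5.26 and 1.46 FPKM, and SNHG9, at 1.20, 0.469 and 1.09 FPKM, had log2 differences of 0.57 and 0.66 with SEs of 0.40 each. For SNHG26 the third H2O2 library was below all controls while the other two were above them. In all, 19 of 26 host genes had a log2 difference above 0, against 53.9% of all genes tested, and the median was 0.13 beside 0.030 over all genes. With 1 library left out the median ran from 0.0893, without control replicate 1, to 0.218, without control replicate 3. It was 0.0843 when libraries were scaled to the same listed total, and 0.15 without 5-FU replicate 3 and H2O2 replicate 3. Without that pair limma again called 0 host genes, and the log2 differences of SNHG15, SNHG16 and SNHG26 were 1.02, 0.99 and 1.11.

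The third comparison set the treatments against each other and tests directly whether they differ. SNHG7 was lower after 5-FU than after H2O2, and nearly every other host gene lay on the same side without passing the test. The log2 difference of SNHG7 was -0.95 (SE 0.13, limma adjusted p = 0.0487). It was the 1 host gene of 26 called, against 0.0704% of all genes tested. Of the others, SNHG15 differed in log2 by -0.86 (SE 0.15, limma adjusted p = 0.0815), GAS5 by -0.54 (SE 0.11, limma adjusted p = 0.113) and SNHG5 by -0.67 (SE 0.19, limma adjusted p = 0.219). SNHG29, SNHG1 and ZFAS1 had log2 differences of -0.49, -0.50 and -0.47. For each of these genes no 5-FU library reached the lowest H2O2 library.

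A log2 difference below 0 was found for 23 of 26 host genes, against 49.6% of all genes tested. The groups did not overlap for 14 with 5-FU lower (8.32% of all genes) and for 1 with 5-FU higher (9.42%). That gene was SNHG30, host of SNORD7, at 4.80 ± 0.265 FPKM after 5-FU and 3.203 ± 0.577 FPKM after H2O2 (log2 difference 0.53, SE 0.17, limma adjusted p = 0.291). At an unadjusted p under 0.05 there were 13 host genes, 12 of them lower, against 11.6% of all genes in either direction and 5.47% lower. The median log2 difference was -0.41, beside 0.00237 over all genes, and was -0.36 without 5-FU replicate 3 and H2O2 replicate 3, with 23 genes again below 0. By box type the median was -0.49 over 10 C/D hosts, -0.32 over 9 H/ACA hosts, -0.54 over the 3 mixed hosts and -0.17 over the 4 scaRNA hosts. The ranges overlapped, from -0.67 to 0.53 for C/D and from -0.95 to 0.25 for H/ACA hosts. This order did not hold in 5-FU against control, where the medians were -0.077, -0.10, -0.34 and -0.11. In H2O2 against control they were 0.17, 0.093, 0.31 and 0.12. The SNHG7 call was lost when any single library was left out, with limma adjusted p of 0.0560 to 0.205, and was 0.201 without 5-FU replicate 3 and H2O2 replicate 3, at a log2 difference of -0.97.

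Single transcripts were then examined, since a gene's sum can hide a shift between its models. Of 895 host transcripts 581 were above 0 in some library and 202 were tested. Limma called 0 of 202 in 5-FU against control, 0 in H2O2 against control and 0 in 5-FU against H2O2, beside 0.00442%, 0.0133% and 0.0133% of the 22618 transcripts tested. At an unadjusted p under 0.05 there were 29, 29 and 38 host transcripts, against 10.4%, 7.6% and 8.45% of all transcripts. Without 5-FU replicate 3 and H2O2 replicate 3 limma also called 0 host transcripts in each contrast.

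The lower SNHG7 level after 5-FU was divided over both of its main transcripts. SNHG7-202 was at 31.5, 36.1 and 29.3 FPKM in control, 21.1, 14.4 and 15.3 FPKM after 5-FU, and 30.2, 24.7 and 25.0 FPKM after H2O2. SNHG7-205 was at 21.7, 19.2 and 24.6 FPKM in control, 12.3, 10.1 and 11.2 FPKM after 5-FU, and 30.0006, 34.4 and 28.5 FPKM after H2O2. Both lay below every control library after 5-FU, with log2 differences of -0.93 each (limma adjusted p = 0.184 and 0.150). Only SNHG7-205 lay above every control library after H2O2, and its difference between the treatments, -1.42 (SE 0.17), was the nearest to the threshold among the host transcripts tested in the 3 contrasts (limma adjusted p = 0.0573). With a pseudocount of 0.1 in place of 0.5 it passed (limma adjusted p = 0.0387).

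For SNHG15 the higher level after H2O2 lay in 1 transcript. SNHG15-203 was at 8.97, 3.68 and 3.99 FPKM in control, 7.999, 7.39 and 5.63 FPKM after 5-FU, and 18.3, 15.3 and 19.97 FPKM after H2O2. It was the most abundant SNHG15 transcript in every library, and its H2O2 values did not overlap with the others. The remaining transcripts together stayed at 5.88 ± 1.75, 6.03 ± 1.44 and 6.29 ± 0.899 FPKM in the 3 groups. Its log2 difference in H2O2 was 1.70 (SE 0.31, limma adjusted p = 0.345), and without control replicate 1 it was 2.07 (SE 0.22) and passed (limma adjusted p = 0.0383).

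SNHG16 was different, because its high values sat in a different transcript from library to library. In 5-FU replicates 1 and 3 SNHG16-206 was at 47.4 and 44.6 FPKM, against 2.64 FPKM in 5-FU replicate 2 and at most 4.19 FPKM in control. After H2O2 the leading transcript was SNHG16-203 at 40.0 FPKM in replicate 1, SNHG16-212 at 60.6 FPKM in replicate 2 and SNHG16-211 at 42.2 FPKM in replicate 3. SNHG16-203 and SNHG16-211 were at most 0.0316 and 0.526 FPKM in every other library. With the leading transcript of each library set aside, the gene was at 25.4 ± 2.55 FPKM in control, 20.02 ± 0.26 FPKM after 5-FU and 31.2 ± 8.09 FPKM after H2O2. Replicates 1 and 3 of H2O2 were then at 35.8 and 36.0 FPKM, above the highest control of 27.4 FPKM, while replicate 2 was at 21.9 FPKM, below the lowest control of 22.5 FPKM. All 3 libraries of 5-FU were then below the lowest control, at 19.7 to 20.2 FPKM. The transcript set aside differed between libraries, so these remainders are sums over different transcripts. They give no separate test of a difference between groups.

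**Figure D4:**
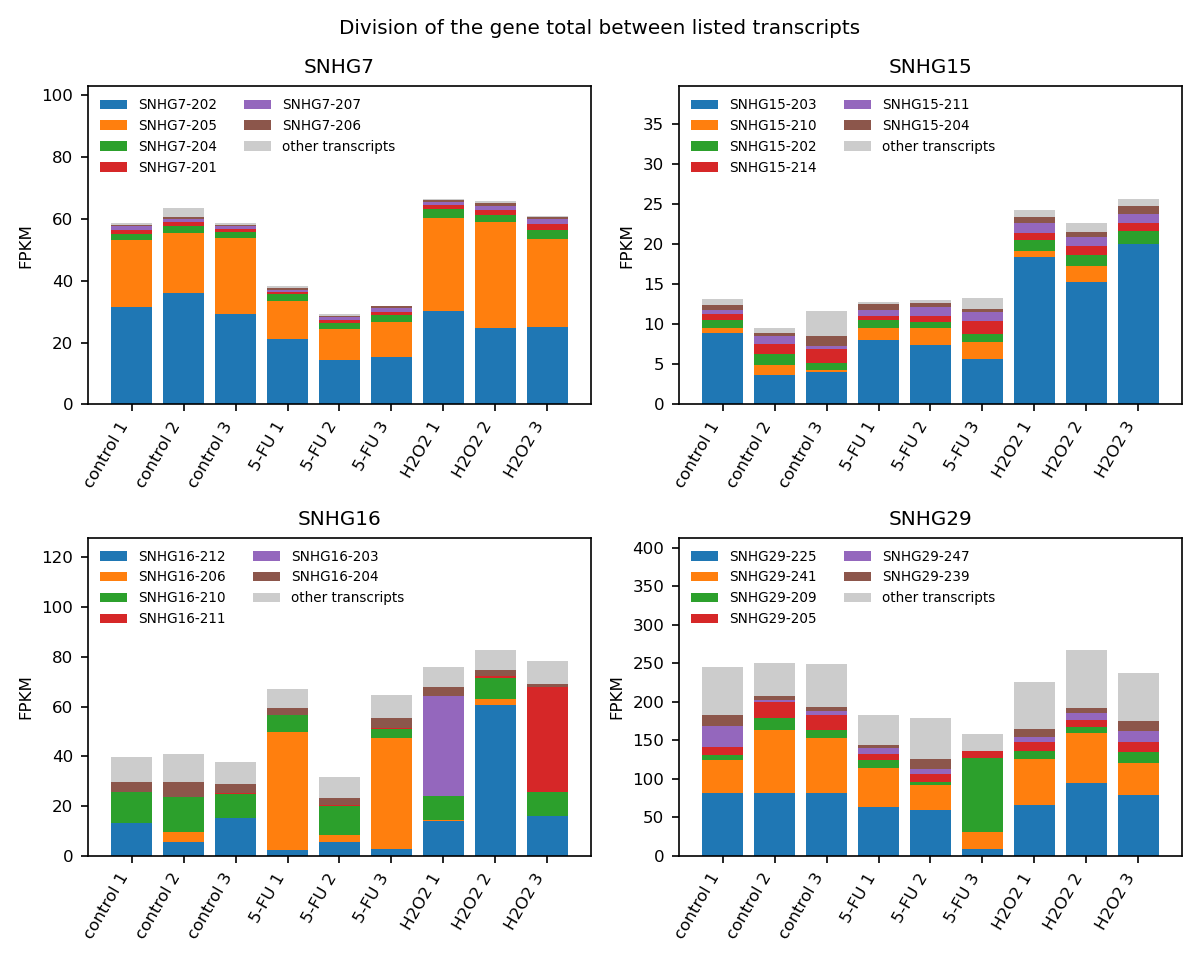
FPKM (y axis, from 0) of SNHG7, SNHG15, SNHG16 and SNHG29 in each library, stacked by listed transcript. SNHG7-202 and SNHG7-205 are both shorter after 5-FU, SNHG15-203 carries the H2O2 excess of SNHG15, and SNHG16 has a different dominant transcript in each H2O2 library.

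Shifts of this kind were found in single libraries of other hosts too. SNHG5-283 held 20.6 FPKM in control replicate 1, 5.67 FPKM in control replicate 2 and 0 in control replicate 3. With each library's leading transcript set aside, SNHG5 was at 17.5 ± 2.44 FPKM in control and 10.5 ± 0.583 FPKM after 5-FU (lowest control 14.7, highest 5-FU 10.9 FPKM). The transcript set aside was SNHG5-283 or SNHG5-235 in control and SNHG5-226 after 5-FU. These remainders are thus sums over different transcripts and give no separate test of the gene's difference. In 5-FU replicate 3, one of the libraries that stood apart, SNHG29-209 held 95.1 FPKM and SNHG29-225 8.92 FPKM. In the other 5-FU libraries SNHG29-225 was at 63.4 and 59.4 FPKM and SNHG29-209 at 9.38 and 4.15 FPKM. SNHG3-203, a short model that V29 classes as retained-intron, was at 14.2, 10.9 and 16.3 FPKM in control, 21.4, 24.2 and 34.8 FPKM after 5-FU, and 21.2, 19.0 and 24.6 FPKM after H2O2. Both treatments lay above every control for SNHG3-203, with log2 differences of 0.92 (SE 0.23, limma adjusted p = 0.235) and 0.64 (SE 0.23, limma adjusted p = 0.594). SNHG3-202 was at 23.0 ± 1.06, 22.4 ± 3.63 and 16.3 ± 2.61 FPKM in control, 5-FU and H2O2. Summed over all hosts, transcripts that V29 classes as retained-intron made up 9.10% ± 1.05 of the host FPKM in control, 11.4% ± 1.28 after 5-FU and 8.53% ± 0.204 after H2O2. SNHG3-203 is part of this class, and the host sum itself was lower after 5-FU (739.5 FPKM) than in control (867 FPKM). The share without SNHG3-203 was not computed, so the 5-FU value does not show a rise across hosts. V29 does not list 605 of the 895 transcripts.

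Genes that act with the hosts were read from lists, in which values are mostly those of non-coding models of the coding genes, not of their mRNAs. Limma called 0 genes of each list in each contrast, in either direction, also without 5-FU replicate 3 and H2O2 replicate 3. The shares of all genes to set beside the counts that follow are those already given at an unadjusted p under 0.05, 15.5%, 9.07% and 11.6% in the first, the second and the third comparison. Of 20 snoRNP proteins and assembly factors 12 were tested, with median log2 differences of 0.12 in 5-FU against control, 0.11 in H2O2 against control and 0.038 in 5-FU against H2O2. At an unadjusted p under 0.05 they numbered 2, 0 and 2. Without those libraries the medians were 0.089, 0.11 and 0.092. The most abundant were RUVBL2, an ATPase of the assembly complex, at 22.8 ± 2.73, 22.2 ± 3.65 and 24.7 ± 3.34 FPKM in control, 5-FU and H2O2, and PIH1D1, its adaptor, at 16.0 ± 2.27, 14.2 ± 1.67 and 13.9 ± 1.95 FPKM.

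Of 35 protein-coding genes that also host snoRNAs 28 were tested. Their medians were -0.053, 0.18 and -0.22 in the same order, and 5, 2 and 10 had an unadjusted p under 0.05. In H2O2 against control 24 of the 28 lay above 0, against 53.9% of all genes, and in 5-FU against H2O2 21 lay below 0, against 49.6%. Without 5-FU replicate 3 and H2O2 replicate 3 these counts were 21 and 20, and the medians -0.16, 0.16 and -0.25. RPL4, a ribosomal protein gene, was at 198 ± 68.1, 131 ± 60.1 and 262 ± 14.6 FPKM, and RPL10 at 84.9 ± 16.6, 82.0 ± 19.4 and 87.9 ± 32.0 FPKM. Of 16 nonsense-mediated decay factors 12 were tested, with medians of 0.12, 0.033 and 0.051 and with 0, 0 and 1 at an unadjusted p under 0.05. Without those libraries the medians were 0.053, -0.014 and -0.081, the last pair with changed sign. SMG1, the kinase that acts on UPF1, was at 24.0 ± 1.71, 28.6 ± 0.711 and 28.5 ± 13.0 FPKM, and UPF1, the helicase of the pathway, at 15.04 ± 1.12, 18.3 ± 1.75 and 17.7 ± 2.51 FPKM.

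Of 10 regulators of TOP mRNAs 9 were tested, with medians of 0.22, -0.30 and 0.25 and 1 gene at an unadjusted p under 0.05 in each contrast. Without those libraries the medians were 0.21, -0.14 and -0.079, so that the last changed sign. LARP1, which binds the TOP start, was at 9.49 ± 2.14, 21.7 ± 11.9 and 17.4 ± 9.60 FPKM, with log2 differences to control of 0.97 and 0.72 that did not pass (limma adjusted p = 0.380 and 0.681). CNBP, which also binds TOP mRNAs, was at 13.8 ± 14.4, 26.7 ± 22.3 and 5.87 ± 1.06 FPKM.

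Some hosts overlap other genes of the table. The library kit marks strand, per the labels' protocols, but no source states whether strand entered the counting. Where their transcripts overlap, such pairs therefore cannot be told apart with certainty. SNHG3 lies wholly within RCC1 on the same strand, and RCC1, a chromatin-bound exchange factor, was at 0.596 ± 0.109, 1.73 ± 0.878 and 1.149 ± 0.415 FPKM in control, 5-FU and H2O2 (log2 difference in 5-FU 0.96, limma adjusted p = 0.150). GAS5-AS1, opposite GAS5, was at 0.515 ± 0.185, 0.477 ± 0.0469 and 0.665 ± 0.154 FPKM. SNHG16 is overlapped on the other strand by JMJD6, at 5.76 ± 2.11, 8.88 ± 2.91 and 7.09 ± 0.838 FPKM, by ST6GALNAC2, at 0.660 ± 0.210, 1.48 ± 0.199 and 0.817 ± 0.133 FPKM, and by ST6GALNAC1, at up to 0.941 FPKM in the group means. The SNHG16 transcripts with a mean of at least 0.5 FPKM end at or before base 76565357. The listed spans of JMJD6, ST6GALNAC2 and ST6GALNAC1 begin beyond it, the nearest at 76568717, so only SNHG16 transcripts under that level reach them. LRRC75A, opposite SNHG29, was at 0.957 ± 0.0804, 1.08 ± 0.0326 and 0.720 ± 0.564 FPKM. None of these neighbours was called by limma in any of the 3 contrasts, and each was below its host's level in every group.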

How the data were processed

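RNA sequencing libraries of SNU16 cells (9 libraries, 3 per group) were analysed from 1 table in which the authors deposited FPKM per transcript. HISAT2 2.0.5, StringTie, edgeR 3.22.5 and GRCh38 are named without roles, per the submitters' processing notes. No source used states the annotation release or the use of strand, and the read depth is unknown. Most listed models are of non-coding classes.

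FPKM of all transcripts under a gene identifier were summed. Genes and transcripts reaching 0.5 FPKM in at least 3 of 9 libraries were compared on a log2(FPKM + 0.5) scale by limma 3.58.1 (lmFit, eBayes with a trend) in R 4.3.3, in 1 fit of all 9 libraries with 6 residual degrees of freedom, in two-sided tests, adjusted by Benjamini and Hochberg across the 9947 genes or 22618 transcripts and a threshold of 0.05. Fold changes on this scale understate low genes. The procedure was tested on simulated data.

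The members, gene lists and tests were chosen with earlier results of these data known. Values in every library were printed for called members, the 8 most abundant, and the 4 with the largest difference in each contrast with control. Of each list the 2 most abundant genes were named. SNHG6, SNHG12 and other members were named after their values were seen. Alternatives were other pseudocounts (0.1 and 1), filters, scalings, array weights, a replicate block, fits of only the compared groups, and leaving out libraries. Transcript classes and strands came from GENCODE V29, snoRNA names and start sites from RefSeq (GRCh38.p14). The sequence of 1 snoRNA of SNHG7 is not reported here.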

Additional observations from a re-analysis of the deposited data

Results flagged for a closer look

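SNHG7 is singled out because the treatments differed by a direct test: its log2 difference in 5-FU against H2O2 was -0.95 (SE 0.13, limma adjusted p = 0.0487), lower in 3 of 3 5-FU libraries than in any H2O2 library. This call was lost whenever 1 library was left out.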

How the results depend on the processing

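Host genes called in 5-FU against control numbered 2 and became 1 with no filter on low values (SNHG7), and 0 under the replicate block, in a fit of only the groups compared, and without 5-FU replicate 3 and H2O2 replicate 3 together. With 1 library left out they numbered 0 to 2. Host genes called in 5-FU against H2O2 numbered 1 and became 0 with no filter, with median-of-ratios scaling, with scaling to the same listed total, with array weights, under the replicate block, in a fit of only the groups compared and without both libraries numbered 3. With 1 library left out they numbered 0 to 0. Host transcripts called in H2O2 against control numbered 0 to 1 with 1 library left out, and those called in 5-FU against H2O2 became 1 with a pseudocount of 0.1. The cause was not tested.

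Deviations from the group means had correlations of -0.0357 to 0.0801 between same-numbered libraries and of -0.0823 to 0.0474 between the others. The highest, 0.0801 for replicate 1 and 0.0620 for replicate 3 of 5-FU and H2O2, were of same-numbered libraries. All were small, and they cannot settle whether the numbers mark a shared batch. Under the replicate block SNHG5 and SNHG7 had limma adjusted p of 0.0876 and 0.0655 in 5-FU against control, and SNHG7 had 0.145 in 5-FU against H2O2.

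The median log2 difference of host genes in 5-FU against control was -0.10 with no filter and ran from -0.22 to 7.52e-05 with 1 library left out, the latter without control replicate 3. In H2O2 against control it was 0.0970 with no filter, 0.106 with the filter at 6 of 9 libraries, 0.0923 with median-of-ratios scaling, 0.0843 with the same listed total and 0.15 without both libraries numbered 3, and ran from 0.0893 to 0.218 with 1 library left out. Host genes below 0 in 5-FU against H2O2 numbered 20 to 24 in the alternatives run.

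Log2 differences that changed sign were all of genes not called. Besides the 14 genes described in full, whose values follow, 12 differences changed sign with 1 library left out, those of DANCR, SNHG4 and SNHG20 in 5-FU, of DANCR, SNHG4, SNHG10, SNHG17 and SNHG20 in H2O2, and of SNHG4, SNHG10, SNHG20 and SNHG22 in 5-FU against H2O2. SNHG1 in H2O2 was -0.033 with median-of-ratios scaling, -0.042 with the same total, -0.013 with array weights and -0.032 without both libraries numbered 3, and ran from -0.072 to 0.052 with 1 library left out. With 1 library left out, SNHG26 in 5-FU against H2O2 ran from -0.69 to 0.14, SNHG29 in H2O2 from -0.10 to 0.018, SNHG32 in 5-FU against H2O2 from -0.029 to 0.11, SNHG6 in 5-FU from -0.078 to 0.22 and SNHG9 in 5-FU from -0.27 to 0.45. SNHG32 in 5-FU against H2O2 was -0.065 without both libraries numbered 3, and SNHG9 in 5-FU was -0.14 with a pseudocount of 0.1. Of the other values of single genes, 741 kept direction and side of the threshold. Many of these could not change direction, since leaving out a library of the group not compared does not alter a difference. Most were of genes not called in any setting, so the number is no measure of stability. The unknown depth limits what can be said of SNHG9 and SNHG26.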
